A study of Mus musculus with 6 samples.

Results

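The carbonic anhydrases measured here are 9 mouse genes, Car1, Car2, Car3, Car4, Car7, Car8, Car9, Car12 and Car13, of the 16 carbonic anhydrase genes in the RefSeq gene table. They were chosen by name with their knockout against control values in these arrays already known. Those values, and any calls made on them, are therefore given as a description and not as a test. All 9 had a probe on the array, with 12 probes among 56605, and 7 of the 9 passed the filter on dim probes, under which the scanner software had to flag a probe as well above background on 3 or more of the 6 arrays. Over the whole array 13496 of 23462 named genes passed. The study deleted Arid1a, a DNA-binding subunit of the BAF (SWI/SNF) chromatin remodelling complex, in the mouse intestine and compared gene expression in isolated crypts. Control mice carried the floxed alleles alone (Arid1a f/f, 3 arrays), and knockout mice carried Villin-Cre together with Arid1a f/f (3 arrays). Every array therefore carried floxed Arid1a, the strain is labelled mixed in both groups, and no age, intestinal segment or time of deletion is given in the sources used here. Villin regulatory sequence drives Cre in the intestinal epithelium, so the deletion is directed to epithelial cells and not to other cells of the preparation.

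The labels of 2 arrays contradict each other. Knockout 2 is a Villin-Cre; Arid1a f/f array by title and description but Arid1a f/f by source name and genotype, and control 3 is the reverse. Groups here follow title and description, and calls that are lost without both arrays are named as such. Arid1a itself stood between 3.47 and 4.01 on the 3 control arrays and between 2.07 and 2.51 on the 3 knockout arrays, as log2 signal minus the 75th percentile of that array, the scale used throughout for levels. Values are always listed in the order of replicates 1, 2 and 3. Control 3 was the highest control and knockout 2 the lowest knockout. The difference was -1.47 ± 0.21 (SE, n = 3 and 3), and Arid1a kept its call with each array left out in turn. Without control 3 and knockout 2 together it was -1.23, with an adjusted p of 0.0979 (limma). The labels do not say that the arrays of a group come from separate mice, so p-values measure only the spread between these arrays. Between 41.7% and 54.7% of probes were well above background on each array, and all 9 epithelial markers passed the filter.

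Carbonic anhydrases interconvert carbon dioxide and water with bicarbonate and a proton, and the active members hold a zinc ion in their catalytic site. Some are soluble in the cytosol, while Car4 is tethered to the outer cell surface by a lipid anchor and Car9 and Car12 span the membrane with the catalytic domain outside. In the gut epithelium they supply the bicarbonate and protons that are exchanged for chloride and sodium during absorption and secretion. Car4 and Car1 are known as products of the colonic surface epithelium, and Car9 as a target of the hypoxia inducible factors. Car12 is also known as a hypoxia target.

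Promoter windows were available in the RefSeq table (GRCm38.p6) for 4 of the 9 members, Car4, Car7, Car9 and Car12. They are shown for Car9 and Car4, the members with the clearest separation between the groups, as the 250 bases before the start of the gene. The Car9 stretch lies at chr4:43506776-43507025 on the plus strand and the Car4 stretch at chr11:84957504-84957753 on the plus strand. Capitals mark matches to the motifs searched on both strands.
Car9: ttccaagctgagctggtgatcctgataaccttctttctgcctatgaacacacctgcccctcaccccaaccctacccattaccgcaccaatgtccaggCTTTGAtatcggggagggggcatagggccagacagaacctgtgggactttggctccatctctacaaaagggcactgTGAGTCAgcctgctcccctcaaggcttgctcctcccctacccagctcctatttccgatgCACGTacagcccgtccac
Car4: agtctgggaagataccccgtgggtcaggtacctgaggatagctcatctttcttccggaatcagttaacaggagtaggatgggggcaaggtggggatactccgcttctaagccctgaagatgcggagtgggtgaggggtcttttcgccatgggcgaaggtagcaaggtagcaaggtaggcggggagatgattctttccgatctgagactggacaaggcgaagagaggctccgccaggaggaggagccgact

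In the Car9 stretch the match at position -18, counted from the start of the gene, is to ACGTG on the minus strand, the core of the hypoxia response element. The matches at -153 and -77 are to CTTTGA, a core bound by TCF factors, and to TGANTCA, the AP-1 motif. The Car4 stretch holds no match, and its 1 ACGTG match lies just downstream of the start, at position 3 on the minus strand. The windows of Car7 and Car12, not shown, held no ACGTG match. Such matches are frequent. Over 32851 windows of 300 bases, ACGTG was in 19.6%, CTTTGA in 16%, TGANTCA in 7.81% and TTTATG, a core bound by caudal-type factors, in 11.9%. A match is a description of the letters and not a binding site.

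Car4 was far lower in the knockout. Its level was 3.34, 3.38 and 3.62 on the control arrays and -1.60, -5.44 and -1.72 on the knockout arrays. The groups did not overlap, the controls lay close together, and knockout 2 was far below the other knockouts. The probe stood well above background in all 3 controls and in 2 of the 3 knockouts, the exception being knockout 2. In processed signal, the intensity left after the scanner software subtracted background, the controls read 2986, 2894 and 3574 and the knockouts 96.5, 4.74 and 62.1. The log2 difference was -6.37 ± 0.99 (SE, n = 3 and 3), which includes the dim value of knockout 2 as measured. Without knockout 2 it was -5.10, and with control 3 also left out it was -5.01. With normexp background correction over all 6 arrays it was -4.43. Within slide 1 (controls 1 and 2, knockouts 1 and 2) it was -6.88 and within slide 2 (control 3, knockout 3) -5.34. In bulk RNA, fewer cells of a type and less RNA per cell cannot be told apart.

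Car9 was higher in the knockout on both of its probes. The brighter probe read 4.75, 4.62 and 4.67 on the controls and 5.82, 5.44 and 5.78 on the knockouts. Every knockout array lay above every control array, and the controls spanned a narrow range. The log2 difference was 1.0 ± 0.17 (SE, n = 3 and 3). It was 0.94 within slide 1 and 1.12 within slide 2. The dimmer probe gave 2.60, 2.41 and 2.80 on the controls against 3.57, 3.15 and 3.76 on the knockouts, a difference of 0.89, again without overlap. Knockout 2 was the lowest knockout array on both probes.

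Car12, the other membrane-spanning member, was lower in the knockout with a wide spread. Its level was -0.64, -1.57 and -1.39 on the control arrays and -1.79, -2.35 and -3.65 on the knockout arrays. The groups did not overlap, although control 2 and knockout 1 were only a short distance apart, and knockout 3 was the lowest array. The log2 difference was -1.40 ± 0.50 (SE, n = 3 and 3). It was -0.97 within slide 1 and -2.26 within slide 2. Without knockout 3 it was -0.87. The probe was well above background on all 6 arrays, but the processed signal was only 16.2 on knockout 3.

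**Figure D1:**
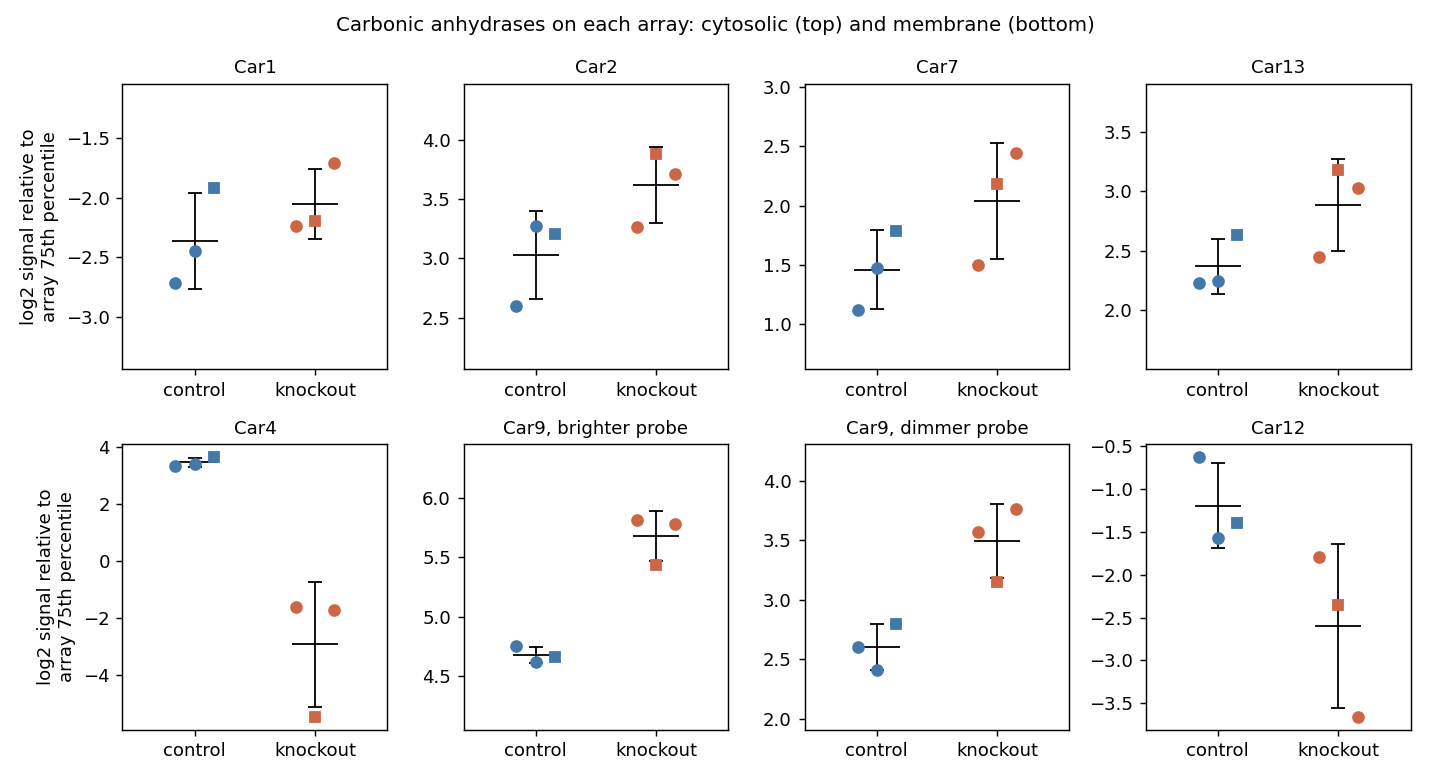
Levels of the measured members on each array, in log2 signal minus the array's 75th percentile, with 3 control and 3 knockout points per gene, squares for the 2 arrays with contradicting labels, and a black bar for the mean ± SD. Car4 and Car12 lie lower on every knockout array and Car9 higher, while the groups of Car1, Car2, Car7 and Car13 overlap.

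The cytosolic members showed small positive differences with overlapping groups. Car2, the high-activity cytosolic enzyme, read 2.60, 3.27 and 3.21 on the controls and 3.27, 3.88 and 3.71 on the knockouts, a log2 difference of 0.59 ± 0.25 (SE, n = 3 and 3). Control 2 and knockout 1 were almost equal, and that pair is the only overlap between its groups. Car7 read 1.12, 1.47 and 1.78 against 1.50, 2.18 and 2.44, a difference of 0.58 ± 0.29. Car13, another cytosolic enzyme, read 2.23, 2.25 and 2.64 against 2.45, 3.18 and 3.03, a difference of 0.51 ± 0.24. In both, control 3 was above knockout 1. Car1, the form abundant in red blood cells and colon, read -2.72, -2.45 and -1.92 against -2.24, -2.20 and -1.71, a difference of 0.31 ± 0.26, with control 3 above knockouts 1 and 2.

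These 4 genes shared an order among the arrays. Control 1 was the lowest control and knockout 1 the lowest knockout for each of them. As a mean deviation from each gene's control mean, the 4 stood at -0.32, 0.01 and 0.30 on the control arrays and at 0.12, 0.64 and 0.74 on the knockout arrays, so control 3 exceeded knockout 1. The median difference of the 4 was 0.55, beside -0.01 over all genes tested. Where the arrays were scaled on their medians these values were 0.30 and -0.26. The median of the 4 was 0.56 within slide 1 and 0.45 within slide 2.

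Car3, the form of muscle and fat with low activity, and Car8, a related protein without catalytic activity, were not well above background on any array. This held for the 1 probe of Car3 and both probes of Car8. The second probe of Car1 was on no array well above background either. No fold change is given for these probes.

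Car13, Car1, Car3 and Car2 lie next to each other in that order on chromosome 3, with pseudogenes and long non-coding RNA genes between them. The measured protein-coding genes beside the cluster were Lrrcc1, at 0.07, E2f5, at -0.38, and Rbis, at 0.08, and none of them was called by limma. All of them lie on the Car13 side. On the Car2 side the nearest genes were long non-coding RNA genes and a pseudogene without a measured value. Car4 lies on chromosome 11, Car7 on chromosome 8, Car8 and Car9 on chromosome 4 and Car12 on chromosome 9.

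By the limma fit over all genes, with Benjamini-Hochberg adjustment and a call at an adjusted p under 0.05, 14.9% of the 13496 genes were called, 7.28% higher and 7.62% lower in the knockout. Of the 7 members tested, 2 were called, Car9 higher and Car4 lower. The groups did not overlap for 39.7% of all genes, with every knockout array above every control array for 19% and below for 20.7%. Among the members they did not overlap for 3, all of them membrane members. Nothing is read from these counts, since the same contrast was known when the members were chosen. Car9 was not called with control 1, control 2 or control 3 left out, or without both arrays of contradicting label, when the count of members called was 1. Car4 kept its call in each of these cases. The calls of members rest on the contrast already known, so a call that is kept is a description and no further support. Without knockout 1 the count rose to 5, with Car7, Car12 and Car13 added.

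**Figure D2:**
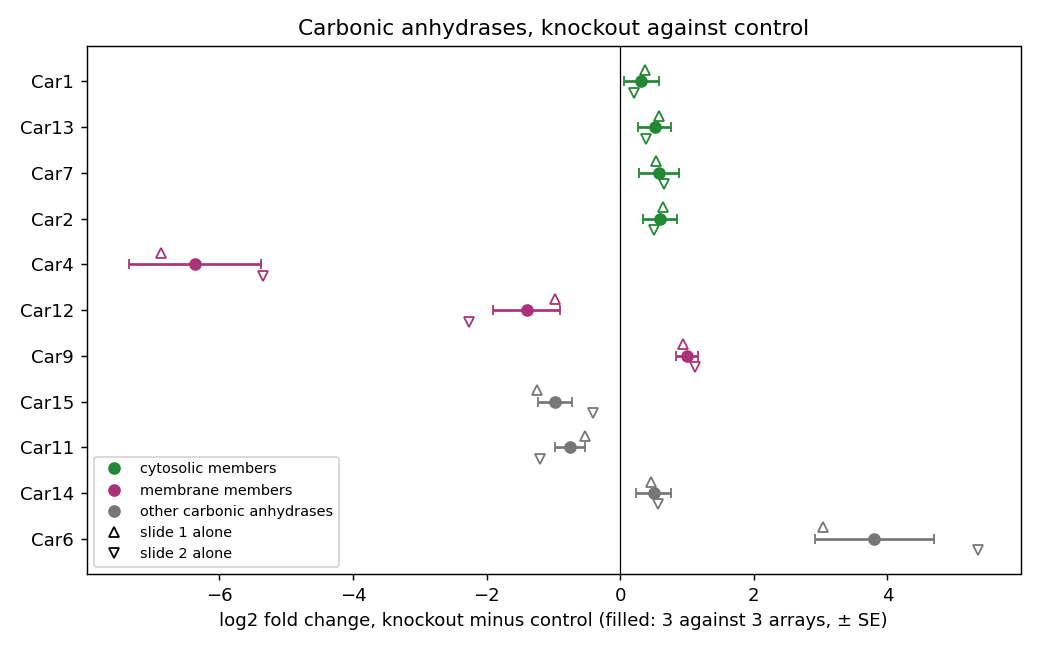
Log2 differences, knockout minus control, of the carbonic anhydrases that passed the filter, as filled points with the standard error of the fit (n = 3 and 3) as bars and open triangles for each slide alone. Car4 at -6.37 and Car6 at 3.81 lie farthest from 0, and the cytosolic members lie between 0.31 and 0.59.

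The other 7 carbonic anhydrases were not among the members, and 4 of them passed the filter. Car6, the secreted form known from saliva, was higher in the knockout at an adjusted p of 0.0364 (limma). Its level was -2.46, -0.56 and -3.56 on the control arrays and 0.26, 2.79 and 1.79 on the knockout arrays. The groups did not overlap, and the arrays within each group were widely spread. The log2 difference was 3.81 ± 0.89 (SE, n = 3 and 3), or 14.0-fold, with 3.03 within slide 1 and 5.36 within slide 2. The adjusted p was 0.118 without control 1, 0.0989 without control 3, 0.102 without knockout 2 and 0.0807 without knockout 3. Without both arrays with contradicting labels the difference was 2.53, with an adjusted p of 0.206.

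Car15, a membrane-anchored form of the mouse, was lower in the knockout at an adjusted p of 0.0492 (limma). It read -0.47, -0.03 and -0.68 on the controls and -1.23, -1.77 and -1.09 on the knockouts, without overlap. The log2 difference was -0.97 ± 0.26 (SE, n = 3 and 3), with -1.25 within slide 1 and -0.41 within slide 2. The adjusted p rose to 0.137 without control 1, 0.136 without control 2, 0.0787 without control 3, 0.132 without knockout 2, 0.0576 without knockout 3 and 0.177 without both arrays of contradicting label. Car11, a related protein without catalytic activity, differed by -0.75 ± 0.23 (adjusted p = 0.073, limma) and was well above background on 2 control arrays and 1 knockout array. Car14, a membrane-spanning form, differed by 0.50 ± 0.26 (adjusted p = 0.222, limma) and was well above background on 1 control array and 2 knockout arrays. Neither Car11 nor Car14 passed the test, although the groups of each did not overlap. Car5a, a mitochondrial form, and Car10, a form without catalytic activity, were not well above background on any array, and no probe was named for Car5b.

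**Figure D3:**
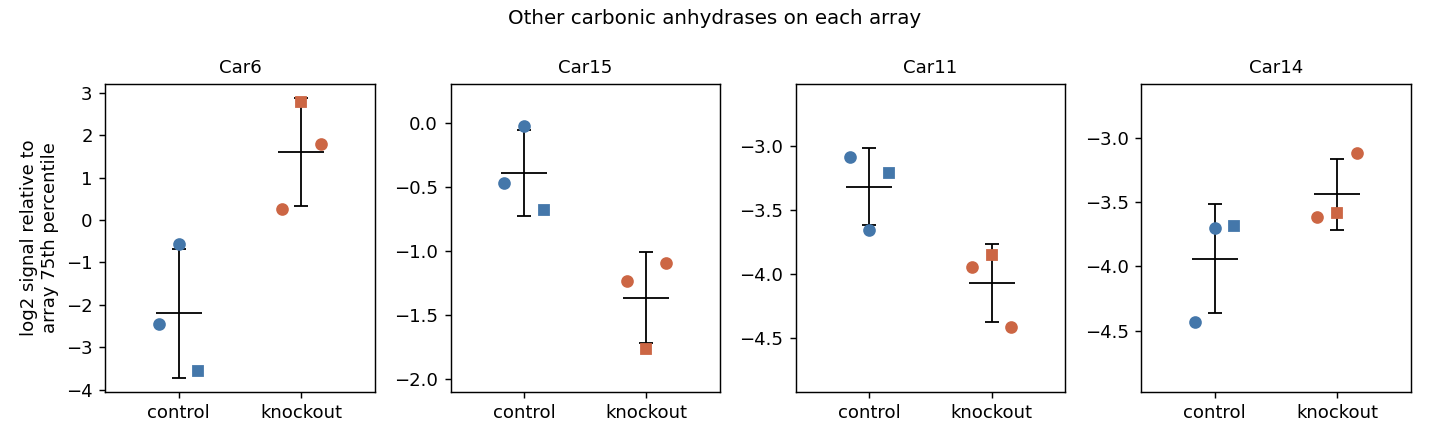
Levels of the 4 other carbonic anhydrases that passed the filter, on each of the 3 control and 3 knockout arrays, in log2 signal minus the array's 75th percentile, with squares for the 2 arrays with contradicting labels and a black bar for the mean ± SD. Car6 is higher on every knockout array and spreads over several log2 units within each group.

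For each measured member, the 3 genes whose pattern over the 6 arrays was most like it were found by the root mean square difference after each gene was centred on its own mean. For Car4, whose own root mean square deviation was 3.43, they included Gsdmc3 at 0.83 and Gsdmc4 at 0.89, neighbouring gasdermin genes of similar sequence. For Car9, with a deviation of 0.52, they were Isg20 at 0.06, Arf2 at 0.08 and Aldh7a1 at 0.09. Isg20 is an exonuclease, Arf2 a small GTPase of vesicle traffic and Aldh7a1 an aldehyde dehydrogenase.

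Car12 deviated by 0.94, and the nearest genes included Aspg at 0.20 and Cdca7 at 0.22, both of which share its low value on knockout 3. Car2 deviated by 0.41 and lay nearest to Trim56 at 0.06, Clec2d at 0.07 and Agrn at 0.07. Car7 deviated by 0.45 and lay nearest to Eps8l2 at 0.05, Enpp3 at 0.06 and Sfn at 0.08. Patterns with small differences between arrays have many near neighbours among 13496 genes, as for Car13 (0.37, with Yod1 and Cfc1 at 0.05 and Zfp410 at 0.07) and Car1 (0.33, with Zfp384 at 0.06 and Nms and Crebbp at 0.08).

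Chloride and bicarbonate transport genes, only some of which carry bicarbonate, gave 1 gene higher and 2 lower among 16 tested. Over all genes 14.9% were called, so this count is not read as a result about the list. The median difference of the list was 0.43 beside -0.01 over all genes. Scaling on the array median gave 0 higher and 3 lower, with a median of 0.18. Slc4a5, an electrogenic sodium bicarbonate cotransporter, read 1.12, 0.85 and 0.74 on the controls and -0.45, -0.24 and -0.37 on the knockouts. It fell by 1.26 on the log2 scale (SE 0.17, n = 3 and 3, adjusted p = 0.00607, limma) and kept its call with each array left out, but not without both arrays of contradicting label (0.0685). Slc4a7, another sodium bicarbonate cotransporter, rose by 1.21 ± 0.27 (adjusted p = 0.0304), and Best2, a bicarbonate channel of colonic goblet cells, differed by -2.25 ± 0.47 (adjusted p = 0.0256). Best2 was well above background on only 1 of the 3 knockout arrays, and with normexp background correction it was at -0.50 (adjusted p = 0.105). The call of Slc4a7 was lost without control 1, control 2, knockout 2 or knockout 3, and that of Best2 without any 1 control or knockout 2. With the arrays scaled on their medians the adjusted p of Slc4a7 was 0.0516. Without both arrays of contradicting label, 0 of the 16 genes were called by limma (6 at an unadjusted p under 0.05). Slc12a2, the basolateral chloride loader, differed by -2.10 ± 0.56 (adjusted p = 0.0501) and Slc4a4 by 0.74 ± 0.22 (adjusted p = 0.0692), and neither passed. The apical chloride bicarbonate exchanger Slc26a3 (0.42, adjusted p = 0.491) and the chloride channel Cftr (0.08, adjusted p = 0.775) did not pass either.

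Proton and monocarboxylate transporters gave 1 gene higher and 1 lower among 11 tested, with a median of 0.25, which was 0.00 where the arrays were scaled on their medians. This count too is close to the 14.9% called over all genes. Slc5a8, a sodium-coupled monocarboxylate carrier of the colon, read -0.93, -0.76 and -1.61 on the controls and -2.47, -2.99 and -2.93 on the knockouts. It fell by 1.69 on the log2 scale (SE 0.27, n = 3 and 3, adjusted p = 0.0116, limma), a call lost without control 1, at 0.0534, and without both arrays of contradicting label, at 0.0501. Slc9a2, an apical sodium proton exchanger, and Slc16a3, a lactate exporter, differed by 1.01 ± 0.27 (adjusted p = 0.0532) and 0.96 ± 0.29 (adjusted p = 0.067) and did not pass.

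Hypoxia target genes were listed without Car9 and Car12, although both are known targets. Car9 differed by 1.0 and Car12, in the other direction, by -1.40. The list gave 9 genes higher and 1 lower among 26 tested, beside 7.28% and 7.62% of all genes. Of these 26, 22 were positive and 15 had every knockout array above every control array, with a median of 0.76. Over all genes 6634 of 13496 were positive and 19% had every knockout array above every control array, with a median of -0.01. As a mean deviation from control, the list stood between -0.12 and 0.11 on the control arrays and between 0.59 and 0.83 on the knockout arrays. Hk2, a hexokinase, read 0.55, 1.17 and 0.86 on the controls and 3.103, 2.78 and 2.47 on the knockouts. It rose by 1.92 ± 0.24 (SE, n = 3 and 3, adjusted p = 0.00515, limma), and Hk1, a second hexokinase, rose by 1.12 ± 0.16 (adjusted p = 0.00863). Both kept their calls with each array left out, but not without both arrays of contradicting label (0.0838 for Hk2 and 0.128 for Hk1).

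The glucose transporter Slc2a1 rose by 1.17 ± 0.21 (adjusted p = 0.0158), and Bnip3, a mitophagy receptor, rose by 1.35 ± 0.24 (adjusted p = 0.0158). Egln3, an oxygen-sensing prolyl hydroxylase, rose by 1.79 ± 0.34 (adjusted p = 0.0189), whereas the related Egln1 fell by 0.63 on the log2 scale (SE 0.16, adjusted p = 0.0458). Vegfa, at 0.75, and Ldha, at 0.30, did not pass. The number of hypoxia genes called was 2, 3 and 4 without controls 1, 2 and 3, and 14, 4 and 6 without knockouts 1, 2 and 3. Without both arrays of contradicting label it was 0 by limma (11 at an unadjusted p under 0.05). Calls of Slc2a1 were lost without any 1 control and with scaling on the array median (adjusted p = 0.063), those of Bnip3 without control 1 or control 3, and those of Egln3 without control 1, control 2 or knockout 2. The call of Egln1 was kept only without knockout 1.

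**Figure D4:**
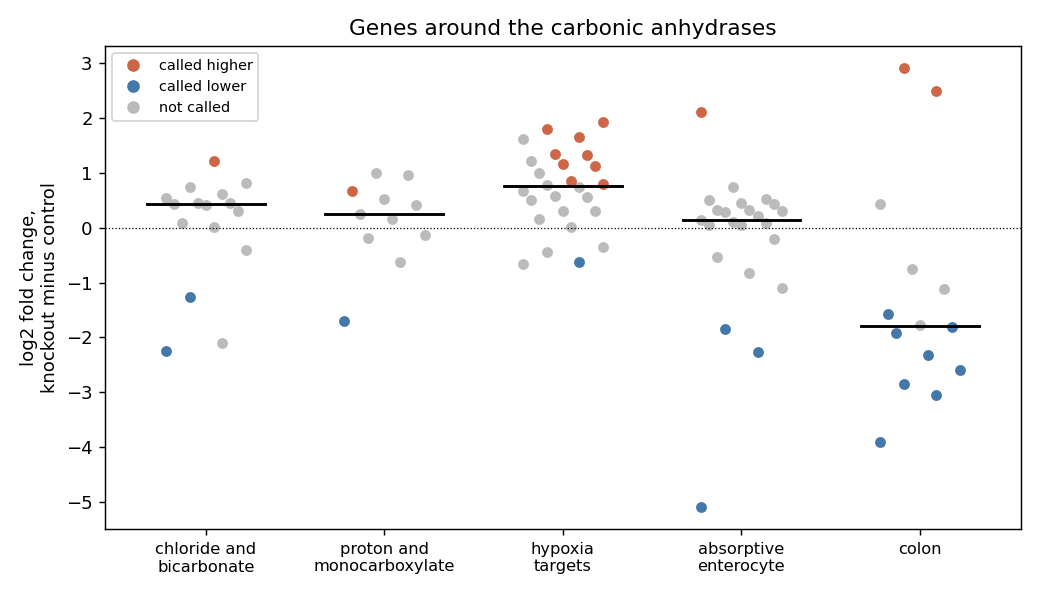
Log2 differences, knockout minus control, of the tested genes of each list, 1 point per gene, coloured by the limma call (red higher, blue lower, grey not called), with a black line for the median of each list. The colon list has its median at -1.80 and the hypoxia list at 0.76, while the absorptive enterocyte list is centred near 0 with single genes far below it.

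Absorptive enterocyte genes gave 1 gene higher and 3 lower among 23 tested, with a median of 0.14 that turned to -0.11 where the arrays were scaled on their medians. With 14.9% called over all genes, the count is not read as a result about the list. Slc2a5, the fructose transporter, read 5.38, 5.27 and 6.02 on the controls and 7.30, 8.10 and 7.57 on the knockouts, and rose by 2.10 ± 0.29 (SE, n = 3 and 3, adjusted p = 0.00673, limma). Lct, the brush border lactase, read 7.99, 8.24 and 8.36 on the controls and 2.26, 1.38 and 5.64 on the knockouts. It fell by 5.10 on the log2 scale (SE 1.01, adjusted p = 0.022), and the brush border peptidases Mep1a and Enpep fell by 2.26 (SE 0.46, adjusted p = 0.0236) and 1.84 (SE 0.46, adjusted p = 0.0422). Treh, at -0.83 ± 0.25, did not pass (adjusted p = 0.0729). Slc2a5 kept its call with each array left out and without both arrays of contradicting label (0.0312), while Lct, Mep1a and Enpep lost theirs in the latter case and without any 1 control or knockout 2.

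Colon genes, among which Car4 and Car1 are known, gave 2 genes higher and 8 lower among 14 tested, with a median of -1.80. Over all genes 7.28% were called higher and 7.62% lower. As a mean deviation from control, the list stood between -0.11 and 0.16 on the control arrays and between -1.50 and -1.01 on the knockout arrays. Sycn, a protein of secretory granules, read -0.23, -0.20 and -0.26 on the controls and -3.05, -2.92 and -2.50 on the knockouts, and fell by 2.59 on the log2 scale (SE 0.19, n = 3 and 3, adjusted p = 0.000844, limma). Cyp2c55, a cytochrome, fell by 3.04 (SE 0.46, adjusted p = 0.00988) and Guca2a, the guanylin precursor, by 2.84 (SE 0.44, adjusted p = 0.0105). These 3 kept their calls with each array left out. Without both arrays of contradicting label Sycn was the only gene of this list called (adjusted p = 0.0303, limma), with Cyp2c55 at 0.0643 and Guca2a at 0.0565. The list does not show from which cells the RNA of its genes came. Exocrine pancreas genes, listed apart, also had a negative median, at -1.55 with 2 of 11 positive, or -0.24 with normexp. Whether their RNA shares a source with that of Sycn was not tested. Tmigd1, an epithelial adhesion protein, rose by 2.91 ± 0.56 (adjusted p = 0.0206), a call lost without control 1, control 2 or knockout 2. Beside them, Car4 differed by -6.37 and Car1 by 0.31. The part of the colon genes in the difference of Car4 was not tested.

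Markers of other cell types known for these enzymes were dim in part. Of 16 red blood cell markers, 3 passed the filter and 0 were called by limma (0 at an unadjusted p under 0.05), with mean deviations from control between -0.46 and 0.42 on the controls and between -0.25 and 0.54 on the knockouts. For muscle and fat, the sources of Car3, 5 of 12 muscle and 6 of 12 adipocyte markers passed the filter. Ckm, Mb, Adipoq and Plin1 were not well above background on any array. Others were so on all 6 arrays, such as Cidec and Acta2, at control means of 5.88 and 4.94. The fibroblast markers Col1a1, Col3a1 and Dcn were not well above background on any array either. However, 2 of 10 fibroblast markers passed the filter, among them Fbln1 at a control mean of 3.28.

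In 5 lists of other cell types 1 gene was called higher and 0 lower, namely Aqp7 by 1.35 among 6 adipocyte genes, Acta2 by 0.91 among 5 muscle genes, Thy1 by 1.92 among 2 fibroblast genes, Cd68 by 0.87 among 8 lymphocyte and macrophage genes and Tubb3 by 1.08 among 5 nerve and glia genes. The median differences of these lists were 0.33, 0.15, 0.50, 0.07 and 0.60, and some members lay below 0, such as the other fibroblast gene Fbln1 at -0.91 and Cd4 at -1.47, neither of them called. Over all genes 7.28% were called higher, so 1 gene in a list this short is not read as a result about the list. With single arrays left out, Aqp7, Acta2 and Tubb3 kept their calls in 1 of 6 cases and Thy1 and Cd68 in 3 of 6. Without both arrays of contradicting label none of these 5 genes was called. Exocrine pancreas genes gave 3 lower (Pnliprp1, Clps and Cpa1) and 0 higher among 11 tested, beside 7.62% and 7.28% of all genes. Their mean deviations lay between -0.86 and 0.63 on the controls and between -2.43 and -0.36 on the knockouts. Pnliprp1 and Cpa1 passed the filter through the 3 controls alone, as 0 of the 3 knockout arrays were flagged for either. Lower was therefore the only direction open to them, and these 2 calls are not read as a result about the list. Their knockout signal is at background, so only bounds can be given, at least 2.276-fold and 4.425-fold lower. Pnliprp1 and Cpa1 lost their calls with normexp (adjusted p = 0.0851 and 0.13), and all 3 genes lost theirs without both arrays of contradicting label. The part of these marker lists in the differences of the carbonic anhydrases was not tested.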

How the data were processed

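Spots of the single-colour Agilent arrays were read by Feature Extraction, whose version is 12.0.3.1 per the file headers. The submitters' processing notes name version 11.5.1.1 instead. The deposited scanner values are a processed intensity, corrected for background inside each array and not scaled across arrays, with 0 or 1 flags for background, outliers and saturation, per the file headers. A series table from the authors has log2 values from which each probe's median was taken off, and it was used as an alternative only. Control and outlier spots were left out, and log2 signal minus the array's 75th percentile was taken. No spot was saturated. Precision is limited by having 6 arrays. Accessions on the array were matched to the RefSeq gene table, and coordinates of the array's build are not printed. The brightest kept probe stood for each gene. Groups were compared in limma 3.58.1 under R 4.3.3, with eBayes, no covariate, and Benjamini-Hochberg adjustment over all 13496 genes, two-sided, tested on simulated data.

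The members, lists and tests were chosen with earlier results of these data known. Named genes were all carbonic anhydrases, the up to 5 genes of smallest p in every list described, the 3 nearest patterns per member and Arid1a. Some genes under this rule are not reported here. Vegfa, Ldha, Slc26a3, Cftr, the chromosome 3 neighbours and the cell type markers were named outside that rule. Alternatives covered the labels, blocks for replicate, slide and inferred sex, the background correction, scaling, the filter and the choice of probe. They also covered the variance model, the weighting of arrays, the series table, stricter thresholds and leaving out arrays. The normexp correction used median signals, and protein sequences were not compared here.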

Additional observations from a re-analysis of the deposited data

How the results depend on the processing

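Counts of called genes are given in the order all genes, members, other carbonic anhydrases, chloride and bicarbonate genes, hypoxia genes, absorptive enterocyte genes and colon genes, and were 2011, 2, 2, 3, 10, 4 and 10 as reported. Grouping the arrays by source name and genotype gave 0 throughout by limma (unadjusted p under 0.05: 207 of all genes, 1 hypoxia gene and 0 in the other lists), and Car6 turned to -0.43, Car4 being at -0.32. Without both arrays with contradicting labels the counts were 320, 1, 0, 0, 0, 1 and 1, where the zeros had 2, 6 and 11 genes at an unadjusted p under 0.05. Slide 1 alone gave 689, 0, 0, 1, 3, 3 and 5 (2 members and 2 others unadjusted), no filter on dim probes 697, 1, 0, 1, 3, 1 and 4 (3 others unadjusted), and an adjusted p under 0.01 gave 513, 0, 0, 1, 2, 1 and 3 (3 members and 3 others unadjusted under 0.05). Array weights raised them to 4766, 6, 2, 9, 15, 10 and 12. Sex as a block gave 1339, 2, 1, 2, 6, 3 and 6, and the slide as a block 2498, 2, 1, 6, 11, 5 and 9. Sex was inferred from whether probes of the male marker Ddx3y were well above background. Control 1, knockout 1 and knockout 3 were male by this rule and the others female, so sex was not balanced between the groups. Scaling on the array median moved the median gene by -0.25 and the share of higher genes among those called from 48.8% to 28.7%. It gave 1 member (Car9, at 0.75, was lost), 5 hypoxia and 7 enterocyte genes. Requiring all 6 arrays above background left Car4 untested and 1 member called. The other carbonic anhydrases fell to 1 with normexp, with a percentile taken over probes detected on every array and with a 2-fold minimum, and chloride and bicarbonate genes rose to 5 with the mean of a gene's probes and with a trended, robust variance.

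Leaving out each array gave 638 to 4023 genes, 1 to 5 members, 0 to 2 other carbonic anhydrases, 1 to 8 chloride and bicarbonate genes, 2 to 14 hypoxia genes, 1 to 7 enterocyte genes and 4 to 12 colon genes. With the replicate number as a block the counts were 2731, 4, 1, 6, 13, 6 and 10. Deviations of same-numbered arrays correlated at 0.25, 0.08 and 0.35, so the numbers were not taken to pair the arrays, although each array correlated best with its own number. Control 3 and knockout 3 also share slide and scan. Quantile normalization and the deposited table kept every count within 1.5 times. Apart from the grouping by genotype, the signs of all measured carbonic anhydrases held in every setting (146 of 146 values for members, 82 of 82 for the others). These values are not separate tests, since all settings reuse arrays from the same 6. Blocks for replicate or slide, the variance model and the filter leave the difference of a given probe unchanged by construction, as for Car1 at 0.31. Over these settings Car4 ranged from -7.64 to -4.43, Car9 from 0.75 to 1.12 and Car12 from -1.80 to -0.58, the last with normexp. Dim probes such as those of Car1, Car11 and Car14 limit what can be measured.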
